A study of Mus musculus with 5 samples.

Results

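The comparison set the higher trazodone levels against the lower ones in particle-exposed microglia. BV-2 cells, a mouse microglial line immortalised with a retrovirus carrying oncogenes, had trazodone (TZ) added at 1.25, 2.5 or 5 µg/mL, or none, and from 1 h later were kept with urban particulate matter (UPM, 50 µg/mL) for 23 h. The libraries at TZ 2.5 and TZ 5 (the higher side) were set against UPM alone and TZ 1.25 (the lower side), which makes 4 of the 5 libraries of the series and 2 a side. All 4 libraries carry UPM, so the contrast is about the TZ level in the presence of particles. The remaining library, a normal control, entered no test, and no label or file used here says whether it received a vehicle. Libraries of a side differ in dose and are not replicates, and nothing in the labels says that they came from separate cultures. The p-values therefore measure the spread among these 4 libraries, which includes dose.

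Trazodone is an antidepressant that blocks serotonin, alpha-adrenergic and histamine receptors and the serotonin transporter, and it has also been described as acting on the PERK branch of the integrated stress response, the pathway by which stressed cells lower protein synthesis. Urban particulate matter is dust collected from city air that carries metals and combustion products and is taken up by phagocytes. Microglia are the resident macrophages of the brain, and BV-2 cells keep their phagocytic and inflammatory genes while they divide without limit in culture.

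Gene expression was counted by 3′-end sequencing, with totals of 6829720 to 7696168 counts a library. All 16 markers of macrophages and microglia had counts, with a summed level of 6550 to 7020 CPM (a gene's share of the library's counts, scaled to a fixed total) in the 5 libraries. Of the 8 markers of resting brain microglia, Siglech had no count in any library. Markers of astrocytes, neurons, fibroblasts and lymphocytes summed to at most 4.76 CPM in any library, those of the oligodendrocyte lineage to 8.59 to 13.1 CPM, and endothelial markers to 275 to 309 CPM. Of the endothelial sum, Flt1 made up 258 to 293 CPM and Kdr 12.6 to 14.9 CPM, while Pecam1, Cdh5, Cldn5 and Tek were each at most 1.86 CPM. Some classes of RNA moved with the sides. Mitochondrial ribosomal RNA took 8.8% and 8.64% of counts on the lower side against 7% and 7.06% on the higher side. Mitochondrial messenger RNA took 3.71% and 3.97% against 4.38% and 4.85%. Among those tested, ND4, CYTB and ND1 stood higher on the higher side, while ND2, COX1, ND6 and ND5 were level or lower. Small nucleolar RNA took 0.145% and 0.135% against 0.0914% and 0.0651%. The part of these shifts in the results below was not tested. In bulk RNA, fewer cells of a type and less RNA per cell cannot be told apart.

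Of 10391 protein-coding genes tested, 383 were higher at TZ 2.5 and 5 (3.69%) and 256 were lower (2.46%), which is 6.15% in all. Calls are by edgeR's quasi-likelihood test, with p adjusted by Benjamini-Hochberg over all 11662 genes and a limit of 0.05. Over all genes tested the calls were 408 higher (3.5%) and 314 lower (2.69%), or 6.19% together. The changes were small. The median log2 fold change, always the higher side over the lower side, was 0.43 among the coding genes called higher and -0.40 among those called lower, and 79 and 18 of them reached 1.5-fold. The count of calls rested on which libraries were present. Without TZ 5 it was 66 higher and 36 lower over all genes, without UPM alone 142 and 85, without TZ 2.5 197 and 148, and without TZ 1.25 555 and 452. Of the 383 and 256 coding genes, 47 and 14 stayed past the threshold with each library left out in turn. DESeq2's Wald test called 234 higher and 177 lower. Called coding genes were abundant, with a median of the mean CPM of 109 (higher) and 108 (lower), against 30.7 in all coding genes tested. Lists of abundant genes can therefore hold more calls, and the list shares below were not matched for abundance.

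**Figure D1:**
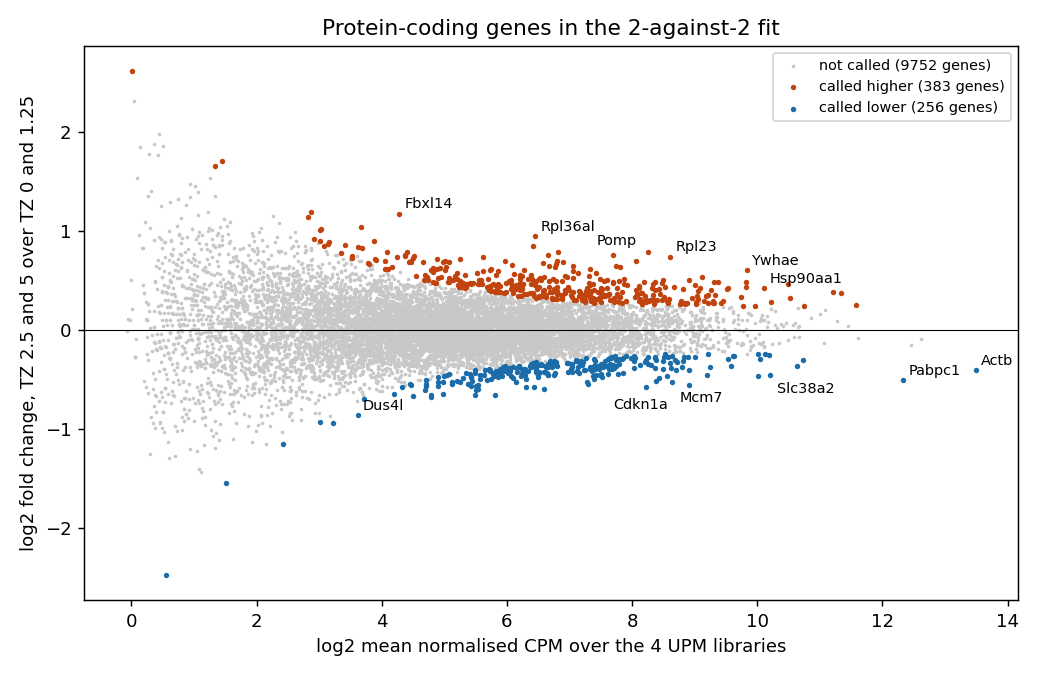
Log2 fold change of the higher over the lower TZ side (vertical axis) against the log2 mean normalised CPM over the 4 UPM libraries (horizontal axis), 1 point per protein-coding gene, with called genes coloured. The 383 genes called higher and 256 called lower lie mostly within 1 log2 unit of 0, and the few points far from 0 at the left edge are genes of few counts.

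Counted without a test, separation of the sides was common. Among 8025 protein-coding genes with a mean of at least 10 CPM, both higher-dose libraries lay above both lower-dose libraries in 2144 (26.7%) and below them in 2041 (25.4%), so that 52.1% of these genes had sides that do not overlap. Between single libraries, the median absolute log2 difference was 0.132 within the lower side and 0.109 within the higher side. In the 4 pairs across the sides it ran from 0.142 between TZ 1.25 and TZ 2.5 to 0.195 between UPM alone and TZ 5. A gap of at least 1.25-fold between the nearest libraries of the 2 sides was left in 210 genes above (2.62%) and 105 below (1.31%), or 3.93% together, and a gap of 1.5-fold in 28 above (0.349%) and 2 below (0.0249%), or 0.374% together. The rule has a hard edge. Cbx5, Polr2d and Ranbp3 lay just inside it with gaps of 1.00002-fold, and Zmpste24, Spats2 and Actl6a just outside with 1-fold or 0.99999-fold.

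Within the sides the called genes also leaned with dose, which the choice of sides did not ask for but which shares its 4 libraries. TZ 5 lay further out than TZ 2.5 in 296 of the 383 coding genes called higher (77.3%) and in 193 of the 256 called lower (75.4%), against 61.7% and 59% of all non-overlapping genes above and below. On the lower side, TZ 1.25 lay toward the higher side from UPM alone in 71.3% of the genes called higher and 77.3% of those called lower, against 59.9% and 62.6% of the non-overlapping genes. All 4 libraries stood in strict order of dose in 211 and 148 genes (55.1% and 57.8%), against 36.8% and 37.2% of the non-overlapping genes. These shares were not computed quite alike. Those of called genes used unrounded CPM at any level. Those of non-overlapping genes used rounded CPM, where a tie counts as out of order, and a mean of at least 10 CPM. Across all 8025 genes TZ 5 exceeded TZ 2.5 in 51.5%, but this share pools both directions and is no baseline for those above. The calls used these same values and were fewest without TZ 5, so the lean is not separate evidence of an order by dose.

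The control library, which no test used, stood nearer the lower side. On the log2 scale it was closer to the lower-side mean in 292 of the 383 genes called higher (76.2%) and 219 of the 256 called lower (85.5%), against 65.2% and 68.1% of the non-overlapping genes above and below and 60.8% of all 8025 coding genes. It fell short of both higher-dose libraries in 358 and 246 genes (93.5% and 96.1%), against 76.1% and 76.7% of the non-overlapping genes. As above, these shares of non-overlapping genes came from rounded CPM, and their side means were taken on the log2 scale. The called genes also had wider gaps. A gap of at least 1.25-fold stood in 42% and 28.9% of them, against 210 of the 2144 and 105 of the 2041 non-overlapping genes. The part of gap width in these shares was not tested. The median log2 difference of the higher-side mean from the control was 0.31 for genes called higher and -0.36 for genes called lower, and that of the lower-side mean was -0.12 and 0.04. With 1 control library these differences have no replicate check.

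The genes with the widest gap between the sides were varied in function. Among called genes with a mean of at least 10 CPM, Fbxl14, a substrate receptor of an SCF ubiquitin ligase, had the widest upward gap. It stood at 11.9 CPM with UPM alone and 11.9 at TZ 1.25, at 24.3 at TZ 2.5 and 29.4 at TZ 5, with 8.92 in the control. Both higher-dose libraries thus lay about 2.03-fold or more above the lower ones, and the control lay below all 4. Its log2 fold change was 1.17 ± 0.18 (SE, edgeR adjusted p = 5.18e-05). Usp42, a ubiquitin-specific protease, stood at 24.7 and 24.5 CPM on the lower side and at 41.0 and 38.9 on the higher side, with 26.0 in the control (log2 fold change 0.70 ± 0.14, adjusted p = 0.00137).

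Nsa2, a factor in the maturation of the large ribosomal subunit, stood at 60.9 and 61.5 CPM on the lower side, then at 96.6 at TZ 2.5 and 124 at TZ 5, with 66.6 in the control (log2 fold change 0.85 ± 0.11, adjusted p = 2.28e-06). The lower-side libraries were nearly level and TZ 5 was the highest. The other genes of widest upward gap included Galns and Nt5c3b, an enzyme that splits sulfate from glycosaminoglycans and a nucleotidase, and Il6ra, the receptor chain that binds interleukin 6. Il6ra was at 17.4 and 16.6 CPM against 28.4 and 27.8, with the control between the sides at 22.8 (log2 fold change 0.73 ± 0.17, adjusted p = 0.005, and 0.0641 without TZ 2.5 and 0.091 without TZ 5). Parvg, Polr2k, Exosc3 and Cmtr2 completed the set, with Myl6, a myosin light chain with many pseudogene copies, and Rpl36al, given below. Of these 12 genes, Fbxl14, Rpl36al, Usp42 and Nsa2 stayed past the threshold with each library left out. The set kept 8 calls without UPM alone, 10 without TZ 1.25, 6 without TZ 2.5 and 5 without TZ 5, with adjusted p up to 0.44.

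**Figure D2:**
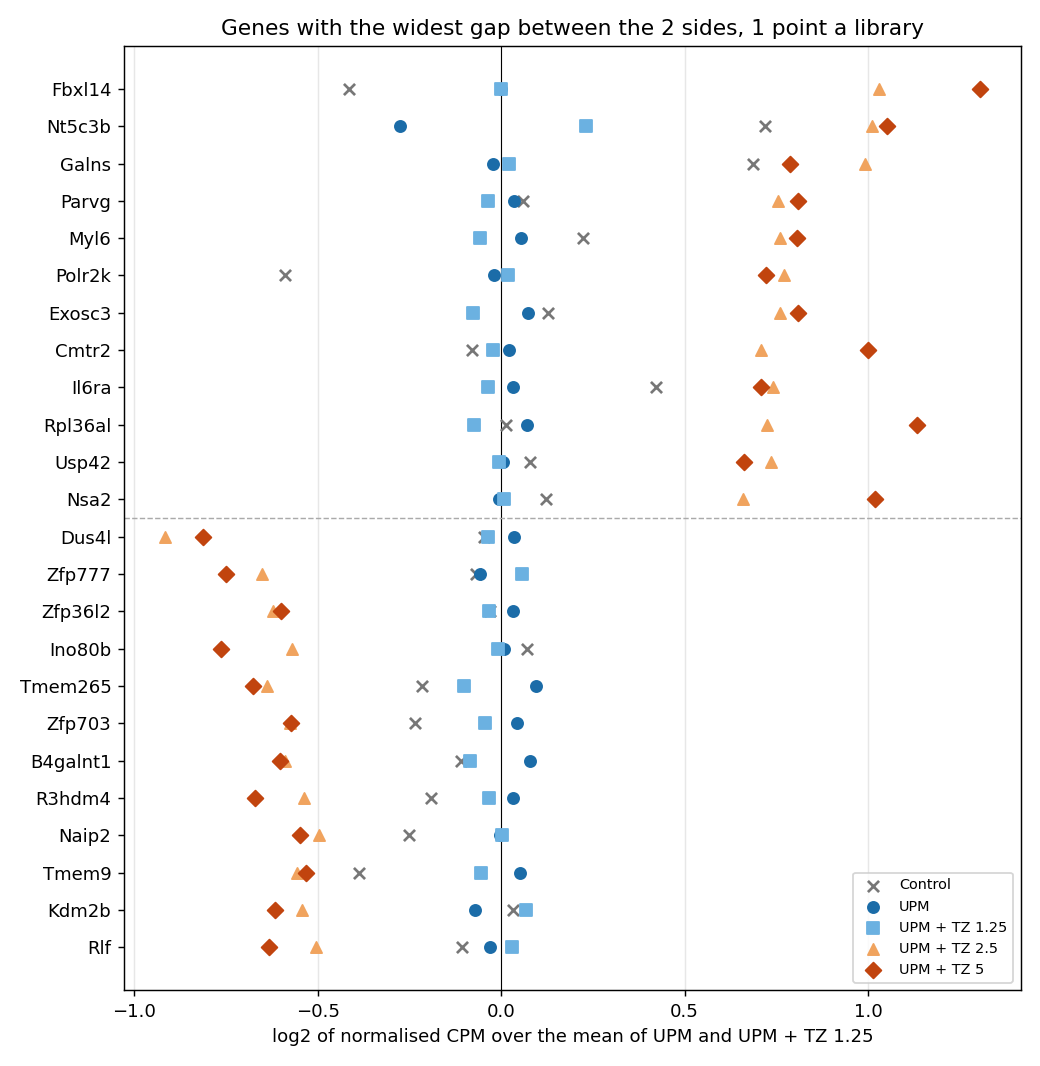
Normalised CPM of the 24 called genes with the widest gap between the sides, as log2 of the ratio to the mean of UPM alone and TZ 1.25, 1 point per library and gene. The TZ 2.5 and TZ 5 points stand apart from the UPM and TZ 1.25 points in each row, and the control (cross) is nearer the lower-dose points in most rows.

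Downward gaps were narrower. B4galnt1, which makes complex gangliosides, stood at 122 CPM with UPM alone and 109 at TZ 1.25, and at 76.8 and 76.0 at TZ 2.5 and 5, with 107 in the control (log2 fold change -0.60 ± 0.10, adjusted p = 0.000127). The 2 higher-dose libraries were nearly equal, and the control stood with the lower side. Zfp703, a transcriptional cofactor, was at 106 and 99.8 CPM against 69.1 and 69.2, with the control between the sides at 87.5 (log2 fold change -0.58 ± 0.10, adjusted p = 0.000268). These were the pair among the 12 that stayed past the threshold with each library left out.

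Zfp36l2, which binds AU-rich elements and promotes messenger RNA decay, stood at 56.3 and 53.8 CPM against 35.8 and 36.3, and the control, at 53.9, was level with the lower side (log2 fold change -0.61 ± 0.13, adjusted p = 0.00148). Without TZ 5 its adjusted p was 0.0674. Dus4l, related to the enzymes that make dihydrouridine in transfer RNA, had the widest downward gap with 16.2 and 15.4 CPM against 8.37 and 8.99, but its adjusted p of 0.0132 rose to 0.0893 without UPM alone, 0.122 without TZ 2.5 and 0.137 without TZ 5. The chromatin genes Ino80b, a subunit of the INO80 remodeller, and Kdm2b, a histone demethylase, fell by 0.66 and 0.58 on the log2 scale. Ino80b lost its call without TZ 5 (adjusted p = 0.0781), and Kdm2b lost it without any 1 of the 4 libraries (adjusted p = 0.08 to 0.391). Zfp777, Tmem265, R3hdm4, Naip2, Tmem9 and Rlf completed the set. The 12 genes kept 6 calls without UPM alone, 10 without TZ 1.25, 6 without TZ 2.5 and 2 without TZ 5.

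Genes of the cytosolic ribosome were the list with the most calls. Of 82 ribosomal protein genes tested, 25 rose and 2 fell, which is 32.9% called beside 6.19% of all genes tested. The median log2 fold change was 0.18 against 0.01 over all genes tested. In 51 of the 82 both higher-dose libraries lay above both lower-dose libraries, and in 7 they lay below (62.2% and 8.54%), beside 25% and 23.4% of all genes tested. The median deviation of the list from its mean over the 4 UPM libraries was -0.05 with UPM alone, -0.12 at TZ 1.25, 0.06 at TZ 2.5 and 0.11 at TZ 5 on the log2 scale, and -0.08 in the control. Together these genes took 3.13% and 3.04% of counts on the lower side, 3.44% and 3.53% on the higher side, and 3.09% in the control. Counts of the list without UPM alone were 21 higher and 0 lower, without TZ 1.25 25 and 4, without TZ 2.5 20 and 1, and without TZ 5 13 and 0. Of the 25 genes, 12 stayed past the threshold with each library left out. Ribosomal protein genes have many near-identical pseudogene copies, and reads shared with these could be split by the counting, so single values are uncertain.

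Rpl23, a protein of the large subunit, stood at 285 CPM with UPM alone, 298 at TZ 1.25, 451 at TZ 2.5 and 524 at TZ 5, with 276 in the control. The control was level with the lower side, and the order followed the dose. Its log2 fold change was 0.74 ± 0.08 (adjusted p = 8.65e-08). Rps27a, which is made as a fusion of ubiquitin and a small-subunit protein, stood at 205 and 206 CPM against 312 and 352, and at 217 in the control (log2 fold change 0.69 ± 0.08, adjusted p = 4.35e-07). Rpl36al, a close paralog of Rpl36a, stood at 62.6 and 56.7 CPM against 98.6 and 131, and at 60.2 in the control (log2 fold change 0.95 ± 0.11, adjusted p = 4.57e-07). In each of these genes the sides were apart by more than 1.5-fold. Rps14 and Rps27l, both of the small subunit, went the other way. Rps14 was at 1260 and 1070 CPM against 972 and 928 (log2 fold change -0.29 ± 0.08, adjusted p = 0.0162), and its adjusted p was 0.341 without UPM alone and 0.234 without TZ 5. For Rps27l the log2 fold change was -0.27 ± 0.08 (adjusted p = 0.0297), and the call was lost without UPM alone, TZ 2.5 or TZ 5 (adjusted p = 0.306, 0.0826 and 0.44).

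**Figure D3:**
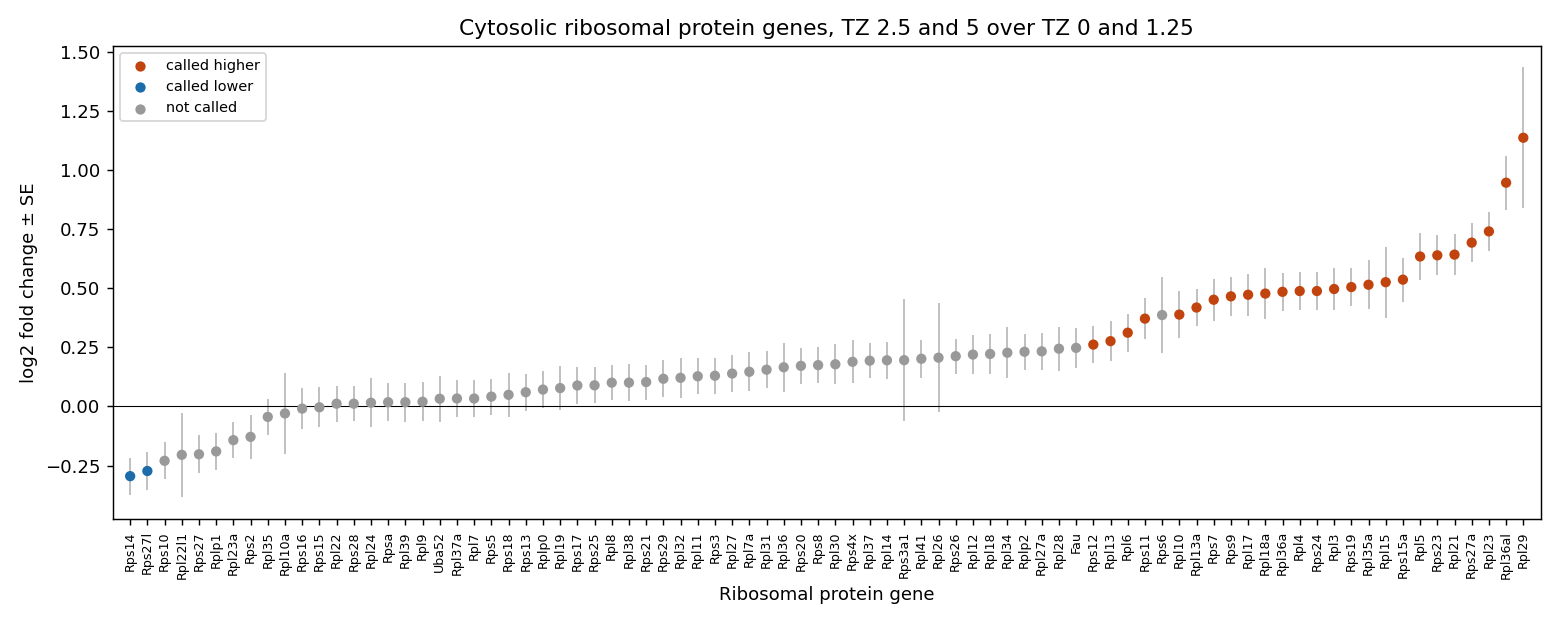
Log2 fold change of the higher over the lower TZ side for the 82 cytosolic ribosomal protein genes tested, with the standard error (SE) of the edgeR fit as bars, in ascending order. The points run from -0.29 in Rps14 to 1.14 in Rpl29, a gene of few counts, with 25 called higher and 2 called lower.

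The promoters of 3 genes that rose with each library left out and of Mcm7, which fell with each library left out, are shown so that the start regions of genes called in both directions can be read side by side. They are RefSeq windows of the earlier build GRCm38.p6, chr11:97782390-97782689 for Rpl23 and chr12:69184018-69184317 for Rpl36al, chr5:147860378-147860677 for Pomp and chr5:138171834-138172133 for Mcm7. Rpl23, Rpl36al and Mcm7 are on the minus strand and Pomp on the plus strand, and each sequence is written in the direction of transcription. Capitals mark matches, on either strand, to short motifs. These were the CCAAT box, named by its own letters, the GC box with the letters GGGCGG, and the E box, which reads CACGTG on both strands. The TATA box was searched for as TATAAA, and the site of ETS factors was searched for as CCGGAAG.
Rpl23: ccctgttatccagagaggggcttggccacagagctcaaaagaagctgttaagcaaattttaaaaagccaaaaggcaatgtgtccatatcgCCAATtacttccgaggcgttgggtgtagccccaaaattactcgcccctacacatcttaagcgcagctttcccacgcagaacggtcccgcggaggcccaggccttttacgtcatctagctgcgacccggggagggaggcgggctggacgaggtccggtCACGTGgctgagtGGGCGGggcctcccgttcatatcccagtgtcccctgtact
Rpl36al: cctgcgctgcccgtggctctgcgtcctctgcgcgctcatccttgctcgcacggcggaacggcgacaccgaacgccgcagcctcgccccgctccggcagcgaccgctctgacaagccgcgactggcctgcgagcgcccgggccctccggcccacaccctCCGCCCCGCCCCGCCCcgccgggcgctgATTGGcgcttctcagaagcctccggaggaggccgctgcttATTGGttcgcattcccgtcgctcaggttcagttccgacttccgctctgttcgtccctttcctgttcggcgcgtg
Pomp: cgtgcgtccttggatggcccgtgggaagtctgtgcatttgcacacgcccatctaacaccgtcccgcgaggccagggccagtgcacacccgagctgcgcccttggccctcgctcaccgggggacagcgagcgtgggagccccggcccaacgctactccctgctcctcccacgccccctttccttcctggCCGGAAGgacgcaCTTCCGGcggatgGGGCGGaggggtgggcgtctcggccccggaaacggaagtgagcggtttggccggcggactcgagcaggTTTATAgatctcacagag
Mcm7: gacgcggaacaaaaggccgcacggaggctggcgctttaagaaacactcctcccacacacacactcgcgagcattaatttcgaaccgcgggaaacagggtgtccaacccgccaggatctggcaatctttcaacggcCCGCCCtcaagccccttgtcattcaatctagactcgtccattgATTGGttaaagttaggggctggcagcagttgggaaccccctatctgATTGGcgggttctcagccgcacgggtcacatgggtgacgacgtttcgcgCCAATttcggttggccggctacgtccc
The Rpl23 window holds 1 CCAAT box, 1 GC box and 1 E box, and that of Rpl36al 2 CCAAT boxes and 3 overlapping GC boxes. The Pomp window holds 2 ETS matches, a GC box and a TATA match, and that of Mcm7 3 CCAAT boxes and 1 GC box. For 13 motifs the share of windows with a match was counted in 3 sets, with no test of the differences. A CCAAT box was found in 39.6% of 308 windows of genes called higher, 37.9% of 198 called lower and 39.3% of 8470 windows of all genes tested. A GC box was found in 67.5%, 66.2% and 66.2%, an ETS site in 24.4%, 22.7% and 20.6%, an E box in 10.4%, 12.6% and 10.5%, and a TATA match in 6.49%, 9.6% and 6.4%. Other shares were further apart. The YY1 motif was found in 7.47%, 4.04% and 5.28%, and the interferon-stimulated response element in 4.55%, 2.02% and 3.05%. The sterol regulatory element was found in 1.95%, 0.505% and 0.992%, and the cyclic AMP response element in 4.55%, 2.53% and 3.41%. In genes called higher and lower these are 23 and 8, 14 and 4, 6 and 1, and 14 and 5 windows. Of the 14 interferon matches, 5 were in ribosomal protein genes. The E2F motif was found in 6.49%, 4.55% and 4.39%, and the NRF1 motif in 12.7%, 14.1% and 15%. The antioxidant response element was found in 16.2%, 14.6% and 15.1%. The amino acid response element was found in 0.649%, 1.52% and 0.543%, with 2 and 3 windows in genes called higher and lower. The letters searched, on both strands and not capitalised in the windows, were AAGATGGC for YY1 and TTCCCGCC for E2F. The response elements were read as TGACGTCA for cyclic AMP, TGACNNNGC for antioxidants and TGATGCAA for amino acids, and the sterol element as TCACNCCAC, where N is any base. The NRF1 and interferon motifs, of 10 letters each, are given by name alone. A match is a description of the letters and not a bound site.

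Factors of translation moved in both directions. Of 48 initiation and elongation genes tested, 7 rose and 3 fell (20.8% called, beside 6.19% of all genes tested, median log2 fold change 0.10). Pabpc1, the cytoplasmic protein that coats poly(A) tails, was the largest fall at 6120 CPM with UPM alone, 6000 at TZ 1.25, 4530 at TZ 2.5 and 3970 at TZ 5, with 6920 in the control. It fell with dose in every step, and the control lay above all 4 libraries. Its log2 fold change was -0.51 ± 0.07 (adjusted p = 1.72e-05). Eif5a, which helps ribosomes through difficult peptide bonds, fell from 738 and 628 CPM to 521 and 472 (log2 fold change -0.46 ± 0.08, adjusted p = 0.000268). Naca, a chaperone that meets the nascent chain at the ribosome, rose from 88.6 and 82.7 CPM to 132 and 139 (log2 fold change 0.66 ± 0.10, adjusted p = 1.63e-05).

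Eef1d, a nucleotide exchange factor for elongation, rose from 105 and 106 CPM to 161 and 158, with 131 in the control between the sides (adjusted p = 3.26e-05). Eif3j1, a loosely bound part of the initiation factor eIF3, was at 67.2 CPM with UPM alone and 91.5 at TZ 1.25, and at 118 and 131 on the higher side, with 94.9 in the control. TZ 1.25 and the control were level, and UPM alone was the lowest (log2 fold change 0.65 ± 0.11, adjusted p = 0.000145). These 5 genes stayed past the threshold with each library left out. Eif4g2, at 1300 and 1250 CPM against 1030 and 1110, passed in the full comparison (adjusted p = 0.0346) and not without UPM alone, TZ 2.5 or TZ 5 (adjusted p = 0.21, 0.298 and 0.0823).

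Ribosome assembly genes included 6 that rose and 2 that fell of 59 tested (13.6% called), with a median log2 fold change of 0.04. Besides Nsa2 they were led by Ddx10, an RNA helicase of the nucleolus, at 98.8 and 110 CPM against 150 and 177 and 123 in the control (log2 fold change 0.64 ± 0.10, adjusted p = 2.62e-05). Nop58, a core protein of box C/D small nucleolar particles, was at 596 and 655 CPM against 800 and 864, with 702 in the control (log2 fold change 0.41 ± 0.08, adjusted p = 0.000557). For both the control lay between the sides. Nsa2, Ddx10 and Nop58 kept their calls with each library left out. Ubtf, the activator of ribosomal DNA transcription, and Nop10, of the box H/ACA particles, fell by 0.38 and 0.29 on the log2 scale. Neither passed without UPM alone (adjusted p = 0.0839 and 0.216) or without TZ 5 (adjusted p = 0.416 and 0.201), and Nop10 did not pass without TZ 2.5 (adjusted p = 0.267).

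The enzymes that load amino acids onto transfer RNA were split. Of 23 genes tested, 4 rose and 2 fell (26.1% called), with a median of 0.01. The list also held the associated proteins Aimp1, Aimp2 and Eef1e1, which are not such enzymes and were not called. Nars, which loads asparagine, was at 339 and 353 CPM against 471 and 465, with 397 in the control (log2 fold change 0.44 ± 0.08, adjusted p = 0.000279), and passed with each library left out. Mars1 and Sars, for methionine and serine, rose by 0.54 and 0.43 on the log2 scale. Mars1 lost its call without TZ 5 (adjusted p = 0.113) and Sars without UPM alone (adjusted p = 0.14), where Sars was at 276 CPM in UPM alone and 351 at TZ 1.25. Farsa and Lars, for phenylalanine and leucine, fell by 0.38 and 0.37. Without TZ 5 their adjusted p was 0.345 and 0.198, and that of Lars was 0.11 without UPM alone.

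Among 76 nuclear genes of oxidative phosphorylation, the mitochondrial respiratory chain and ATP synthase, 11 rose and 2 fell (17.1% called, median log2 fold change 0.05). The counts were 8 and 0 without UPM alone, 11 and 4 without TZ 1.25, 9 and 2 without TZ 2.5, and 3 and 0 without TZ 5. Atp5j, a coupling subunit of ATP synthase, was at 76.3 and 74.6 CPM against 117 and 137, with 74.7 in the control (log2 fold change 0.75 ± 0.10, adjusted p = 3.49e-06). Ndufa5, of complex I, was at 92.3 and 89.5 CPM against 139 and 154, with 109 in the control (log2 fold change 0.69 ± 0.09, adjusted p = 5.91e-06). Uqcrfs1, the iron-sulfur protein of complex III, was at 163 and 159 CPM against 221 and 235, with 149 in the control (log2 fold change 0.50 ± 0.09, adjusted p = 0.00015). The libraries of each side were close together in these 3 genes, and they kept their calls with each library left out. Ndufa12 of complex I and Cyc1 of complex III fell by 0.45 and 0.31. Both lost the call without UPM alone (adjusted p = 0.0695 and 0.297) and without TZ 5 (adjusted p = 0.17 and 0.649).

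Of 78 mitochondrial ribosomal protein genes, 3 rose (Mrpl33, Mrpl12 and Mrps14, by 0.38, 0.34 and 0.43 on the log2 scale) and 0 fell, a share near the background. None of the 3 passed without UPM alone, without TZ 2.5 or without TZ 5 (adjusted p = 0.0521 to 0.605).

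The proteasome list held the coding gene of smallest p. Pomp, the chaperone that assembles the catalytic core, was at 206 CPM with UPM alone, 241 at TZ 1.25, 371 at TZ 2.5 and 398 at TZ 5, with 272 in the control. The order followed the dose and the control lay between the sides. Its log2 fold change was 0.78 ± 0.08 (adjusted p = 6.08e-08). Of the 45 genes tested 6 rose and 4 fell (22.2% called, beside 6.19% of all genes tested), with a median of 0.07. Psma4, of the core, was at 226 and 241 CPM against 307 and 328 (adjusted p = 0.000432, and 0.0589 without TZ 5). Psmd13, Psmb3 and Psmd4, the first and last of the regulatory particle and Psmb3 of the core, fell by 0.32, 0.34 and 0.27 on the log2 scale and kept no call without UPM alone or TZ 5 (adjusted p = 0.0833 to 0.771). Pomp was the 1 gene of the 10 that passed with each library left out.

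Of 23 cytosolic and mitochondrial heat shock genes 3 rose and 0 fell, and of 25 endoplasmic reticulum genes 0 rose and 3 fell. Called were 13% and 12% of these lists and 7.14% of the TRiC and prefoldin list given below, beside 6.19% of all genes tested. Whether the heat shock and reticulum lists differ was not tested. Hsp90aa1, the inducible form of HSP90, was at 915 and 976 CPM against 1230 and 1300, with 1030 in the control (log2 fold change 0.42 ± 0.08, adjusted p = 0.000279), and passed with each library left out. Hspa4 and Hsp90ab1 rose by 0.33 and 0.25 and did not pass without UPM alone (adjusted p = 0.183 and 0.548) or TZ 5 (adjusted p = 0.104 and 0.382), nor Hspa4 without TZ 2.5 (adjusted p = 0.0906). Manf, a secreted protein induced by reticulum stress, was at 225 and 226 CPM against 166 and 177, with 211 in the control (log2 fold change -0.39 ± 0.08, adjusted p = 0.00259, and 0.0944 without TZ 2.5). The disulfide isomerases Pdia4 and Pdia3 fell by 0.41 and 0.27. Pdia4 kept its call without TZ 1.25 (adjusted p = 0.00489) and Pdia3 in no left-out fit (adjusted p = 0.0759 to 0.171). A list of 14 genes held the TRiC chaperonin, which folds actin and tubulin, and prefoldin (the Pfdn genes and Vbp1). In it Cct3, of TRiC, fell by 0.31, a call lost without UPM alone, TZ 2.5 or TZ 5.

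Of the integrated stress response and amino acid supply genes, 3 of 30 rose and 1 fell (13.3% called), with a median of 0.03. Slc38a2, a transporter that brings small neutral amino acids into the cell, was at 1420 and 1310 CPM against 1050 and 940, with 1320 in the control. It fell in each step of dose, and the control was level with TZ 1.25. Its log2 fold change was -0.46 ± 0.08 (adjusted p = 0.00014), and it passed with each library left out. Atf4, the transcription factor at the centre of this response, was at 525 CPM with UPM alone, 606 at TZ 1.25, 693 at TZ 2.5 and 672 at TZ 5, with 702 in the control. UPM alone was the lowest and the control the highest of the 5. Atf4 passed in the full comparison (log2 fold change 0.27 ± 0.08, adjusted p = 0.0289) and not without UPM alone, TZ 2.5 or TZ 5 (adjusted p = 0.36, 0.194 and 0.167). The other calls were Nupr1 and Pck2, a stress-induced chromatin protein and a mitochondrial enzyme of gluconeogenesis, at log2 fold changes of 1.01 ± 0.28 and 0.52 ± 0.15, neither of them kept without UPM alone or TZ 5 (adjusted p = 0.0589 to 0.653), nor Nupr1 without TZ 2.5 (adjusted p = 0.384).

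Targets of p53 include genes that arrest the cell cycle or promote death after DNA damage. In the p53 target list, which also holds Trp53 itself, 0 of 23 rose and 4 fell, Trp53 among them (17.4% called). The median log2 fold change was -0.18. Uncalled members went both ways, from -0.961 in Plk3 to 0.794 in Ddb2, with the targets Mdm2 at -0.014 and Bax at -0.008. Cdkn1a, which encodes the cell cycle inhibitor p21, was at 394 CPM with UPM alone, 320 at TZ 1.25, 267 at TZ 2.5 and 210 at TZ 5, with 547 in the control. The 5 libraries formed a single descending order from the control to TZ 5. The log2 fold change was -0.58 ± 0.10 (adjusted p = 9.72e-05), and with each library left out the adjusted p was at most 0.0496, but DESeq2's Wald test gave 0.0881. Bbc3, a death-promoting BCL2 relative, was at 53.7 and 48.9 CPM against 38 and 33.8, with 76.5 in the control above all 4 (log2 fold change -0.52 ± 0.13, adjusted p = 0.00983). Trp53 itself was at 68.5 and 59.5 CPM against 48.6 and 46.0, with 56.4 in the control (log2 fold change -0.44 ± 0.12, adjusted p = 0.0202). Bbc3, Gadd45b and Trp53 were called without TZ 1.25 and in no other left-out fit (adjusted p = 0.0516 to 0.385), so the list held 1 call in each of those.

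Genes of DNA replication and mitosis showed no common direction. Of 47 replication genes 3 rose and 1 fell (8.51% called, beside 6.19% of all genes tested). Mcm7, a subunit of the replicative helicase, was at 507 and 436 CPM against 330 and 325, with 503 in the control at the level of UPM alone (log2 fold change -0.52 ± 0.08, adjusted p = 4.68e-05). Fen1, the nuclease that trims Okazaki fragments, was at 57.4 and 65.8 CPM against 92.1 and 95.1, with 75.9 in the control (log2 fold change 0.60 ± 0.11, adjusted p = 0.000268). Mcm7 and Fen1 passed with each library left out. Rpa2 and Ccne2 rose by 0.35 and 0.38 and passed without TZ 1.25 (adjusted p = 0.000349 and 0.0051) and in no other left-out fit (adjusted p = 0.182 to 0.572).

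Of 40 mitosis genes 2 rose and 3 fell (12.5% called, beside 6.19% of all genes tested). The condensin subunits Smc4 and Smc2 rose by 0.35 and 0.27, and the checkpoint and centromere genes Cdc20, Bub1b and Cenpa fell by 0.40, 0.36 and 0.29. None of these 5 passed without UPM alone (adjusted p = 0.132 to 0.419) or without TZ 5 (adjusted p = 0.371 to 0.723), nor Smc2 and Cenpa without TZ 2.5 (adjusted p = 0.103 and 0.0921). Replication-dependent histone genes, whose messages mostly lack poly(A) tails and are poorly caught by oligo-dT priming, had 17 of 50 members tested. Of these 0 rose and 4 fell (23.5% called), with a median log2 fold change of -0.59. H2ac8 was at 25.4 and 22.3 CPM against 13.6 and 9.86, with 28.6 in the control (log2 fold change -1.02 ± 0.19, adjusted p = 0.000614). H1f4, a linker histone, was at 137 and 126 CPM against 95.6 and 92.2, with 133 in the control (log2 fold change -0.48 ± 0.10, adjusted p = 0.00093). None of the 4 histone calls was kept without TZ 5 (adjusted p = 0.0782 to 0.44), and 2 of the 4 were kept without UPM alone.

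RNA processing genes were divided as well, with 4 of 50 splicing factors higher and 4 lower (16% called). Snrpd3, a core protein of the spliceosome's small particles, was at 590 and 553 CPM against 428 and 351, with 502 in the control between the sides (log2 fold change -0.55 ± 0.08, adjusted p = 3.12e-05). Srsf11, a serine/arginine-rich factor, was at 237 and 248 CPM against 324 and 356, with 263 in the control (log2 fold change 0.49 ± 0.08, adjusted p = 0.000127). These 2 kept their calls with each library left out. Snrpc, of the U1 particle, fell by 0.50 (adjusted p = 0.000268, and 0.0657 without TZ 5).

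Among genes of microglial activation, the disease-associated list had 4 of 26 members higher and 1 lower (19.2% called), with a median of 0.05. Timp2, an inhibitor of matrix metalloproteinases, was at 1300 CPM with UPM alone, 1080 at TZ 1.25, 891 at TZ 2.5 and 835 at TZ 5, with 992 in the control between the sides (log2 fold change -0.47 ± 0.08, adjusted p = 0.000181, and at most 0.0477 with each library left out). The members that rose were Cd9, a tetraspanin, Gpnmb, a glycoprotein of lysosome-rich phagocytes, Spp1, which encodes osteopontin, and the protease Ctsz. Cd9 was at 106 CPM with UPM alone, 150 at TZ 1.25, 181 at TZ 2.5 and 209 at TZ 5, with 118 in the control (log2 fold change 0.61 ± 0.11, adjusted p = 0.000197). Its largest step was from UPM alone to TZ 1.25, inside the lower side, and its adjusted p was 0.0584 without UPM alone. Gpnmb was at 1970 and 2560 CPM against 2870 and 2990 (log2 fold change 0.37 ± 0.08, adjusted p = 0.00419, and 0.285 without UPM alone). DESeq2's Wald test gave adjusted p of 0.136 for Cd9 and 0.245 for Gpnmb. For Spp1 the log2 fold change was 0.40 ± 0.10 (adjusted p = 0.00599), lost without UPM alone (adjusted p = 0.117) or TZ 5 (adjusted p = 0.355). None of these 4 was called without UPM alone.

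Of 24 cytokines and chemokines Spp1 rose and Ccl2, which attracts monocytes, fell, which is 8.33% of the list beside 6.19% of all genes tested. Ccl2 was at 104 and 93.8 CPM against 70.6 and 83.0, with 81.1 in the control inside the higher side (log2 fold change -0.37 ± 0.11, adjusted p = 0.0284, and 0.0939 to 0.458 without UPM alone, TZ 2.5 or TZ 5). In NF-kB and Toll-like receptor signalling, 1 of 33 rose (Ikbkb, by 0.47) and 1 fell (Tab2, by 0.31), together 6.06% and near the background. Of 41 interferon response genes Ifi44 fell by 0.40 (2.44% called), and of 14 inflammasome genes Txnip fell by 0.43 (7.14% called). The median of the interferon list was -0.09, and without TZ 1.25 it had 0 higher and 8 lower. Without UPM alone none of Ikbkb, Tab2, Ifi44 and Txnip passed (adjusted p = 0.152 to 0.322), nor without TZ 2.5 (adjusted p = 0.129 to 0.238), and without TZ 5 Txnip passed (adjusted p = 0.0475) and the others did not. The NRF2 antioxidant list had 2 of 29 higher and 1 lower (10.3% called). Txn1 (thioredoxin) was at 382 and 387 CPM against 486 and 537 (log2 fold change 0.41 ± 0.08, adjusted p = 0.000678, and 0.0925 without TZ 5). Ftl1, the ferritin light chain that stores iron, was at 2060 and 2080 CPM against 2560 and 2810, with 1880 in the control (log2 fold change 0.38 ± 0.07, adjusted p = 0.000875), and passed with each library left out. Prdx1, a peroxiredoxin, fell by 0.25 (adjusted p = 0.0412, and 0.308 without UPM alone, 0.0668 without TZ 2.5 and 0.453 without TZ 5).

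In the lysosome list 6 of 59 genes rose and 1 fell, with a median of 0.04, but the count was 0 and 0 without UPM alone and 1 and 0 without TZ 5. Atp6v1b2, of the proton pump that acidifies lysosomes, was at 280 and 313 CPM against 390 and 402, with 324 in the control (log2 fold change 0.42 ± 0.08, adjusted p = 0.000784, and 0.052 without UPM alone). Another pump-associated gene, Atp6ap2, rose by 0.40, and a further subunit, Atp6v0e, fell by 0.27. Neither passed without UPM alone (adjusted p = 0.216 and 0.367) or without TZ 5 (adjusted p = 0.242 and 0.296), nor Atp6v0e without TZ 2.5 (adjusted p = 0.219). In autophagy, 1 of 43 genes rose, the receptor Nbr1 (log2 fold change 0.46 ± 0.13, adjusted p = 0.0192), which was not kept without UPM alone (adjusted p = 0.0933) or TZ 5 (adjusted p = 0.536).

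Of 25 genes of cholesterol synthesis, in the lipid lists, 0 rose and 0 fell, with a median of -0.08. By edgeR 6 of them had an unadjusted p under 0.05, beside 2186 of all 11662 genes tested. Cyp51 and Hmgcs1 had log2 fold changes of -0.08 ± 0.09 and -0.05 ± 0.09. Of 24 genes of LXR, cholesterol efflux and fatty acid synthesis 1 rose and 3 fell (16.7% called, beside 6.19% over all genes tested), and the median was -0.11. The 3 that fell were the nuclear receptor Nr1h2, the desaturase Scd2 and the transcription factor Srebf1, by 0.53, 0.35 and 0.44, and Elovl5, a fatty acid elongase, rose by 0.40. None of the 4 was kept without UPM alone, TZ 2.5 or TZ 5 (adjusted p = 0.078 to 0.696). The list had 0 calls in either direction without UPM alone, and 2 higher and 6 lower without TZ 1.25. Fabp4, a fatty acid carrier of activated macrophages, was at 43.4 and 52.7 CPM against 69.4 and 86.4, with 57.9 in the control between the sides (log2 fold change 0.70 ± 0.12, adjusted p = 0.000219, and 0.109 without TZ 5).

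Trazodone's own targets were mostly without counts in these cells. Of 16 receptor and transporter genes, 10 had a count of 0 in all 5 libraries, among them Htr2a, Htr2c and Drd2, which allows at most 0.392 to 0.435 CPM depending on the library. The transporter Slc6a4 and the receptor Htr7 had 1 count each in 1 library. Htr2b was at 12.7 and 9.56 CPM against 10.8 and 14.9, Adra1a at 18 and 15.1 against 13.4 and 15.4, and the sides overlapped in both. The histamine receptor Hrh1 had 9 to 22 counts a library.

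In 5 lists no member passed: immediate-early transcription factors (24 tested), Id factors and TGF-beta signalling (27), MHC class I presentation (16), phagocytic receptors (26) and cholesterol synthesis. At an unadjusted p under 0.05 edgeR had 4, 2, 3 and 6 members of the first 4, beside 2186 of all 11662 genes tested. Of 68 genes of vesicle transport 2 rose and 3 fell, of 28 lipid droplet and fatty acid oxidation genes 1 and 2, and of 22 glycolysis genes 2 and 1. Called were 7.35%, 10.7% and 13.6% of these lists, beside 6.19% of all genes tested. For the lysosome and autophagy lists above the shares were 11.9% and 2.33%. Gapdh was counted at only 20.5 to 38.1 CPM, and it has many pseudogene copies. The lists were written with results of these data known, and their counts are a description. The part of abundance in their shares was not tested.

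**Figure D4:**
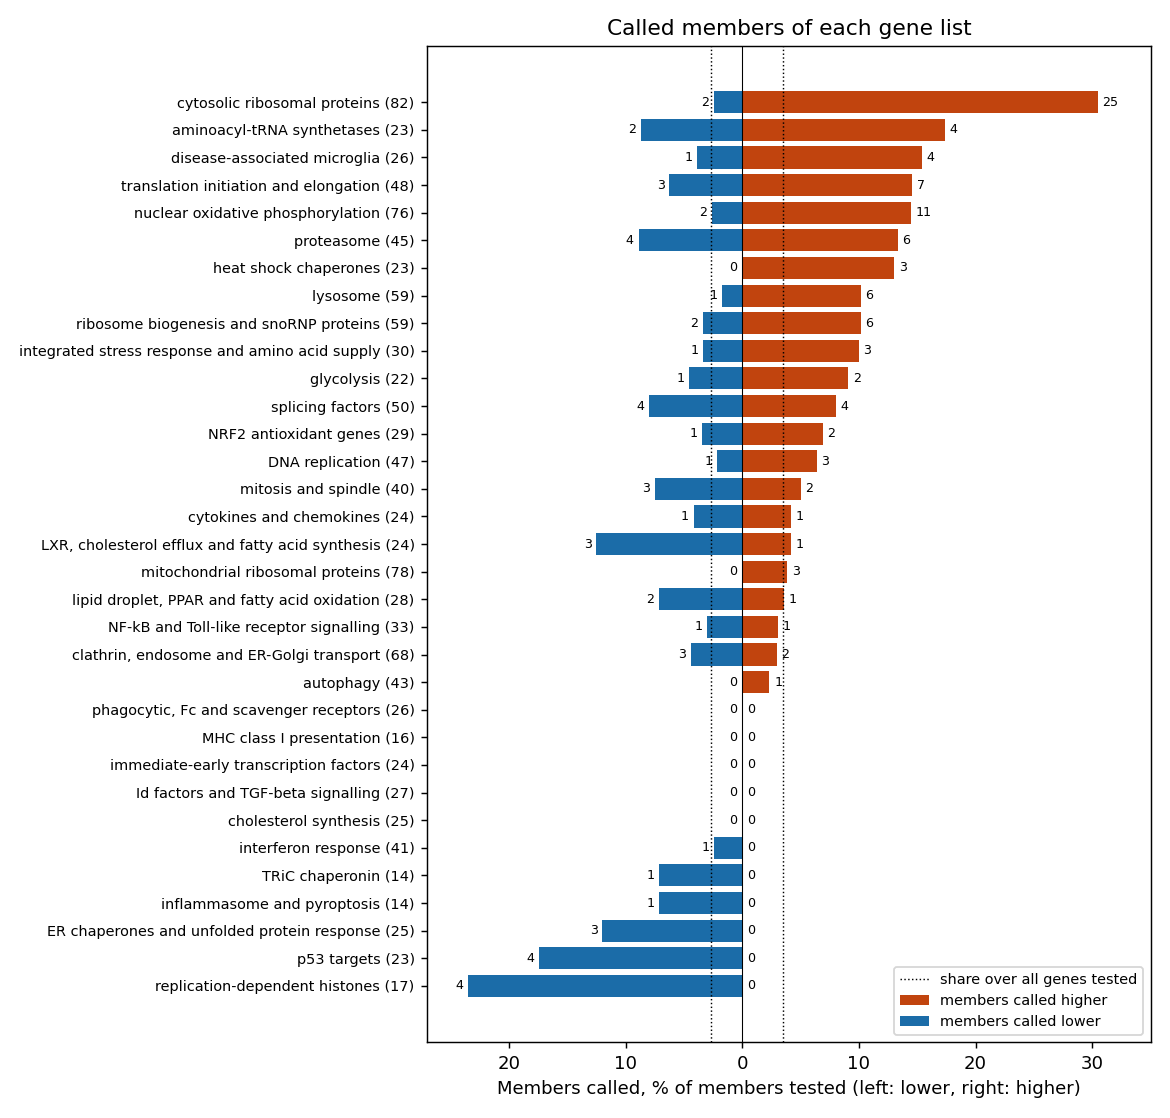
Share of tested members called higher (right) and lower (left) in each gene list, in percent of members tested, with the number of called members at the bar ends and the tested number in parentheses. The ribosomal protein bar is the longest to the right with 25 of 82 members, and the dotted lines show 3.5% higher and 2.69% lower over all genes tested.

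Some of the coding genes of smallest p lay outside the naming rule, and those given here were chosen after their values were seen. Csf2ra, the receptor chain for the growth factor GM-CSF, was at 88.9 CPM with UPM alone, 76.1 at TZ 1.25, 137 at TZ 2.5 and 147 at TZ 5, with 72.5 in the control. The sides stood 1.54-fold apart at their nearest libraries, and the log2 fold change was 0.78 ± 0.10 (adjusted p = 1.13e-06). Ywhae, a 14-3-3 adaptor that binds phosphorylated proteins, was at 691 and 762 CPM against 1050 and 1150, with 776 in the control (log2 fold change 0.60 ± 0.08, adjusted p = 1.75e-06). Lrpprc, which stabilises mitochondrial messenger RNA, was at 77.9 and 92.3 CPM against 131 and 143, with 109 in the control (log2 fold change 0.69 ± 0.10, adjusted p = 1.49e-05). Each of these kept its call with each library left out.

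Abundant genes of the cytoskeleton, also chosen after their values were seen, moved in both directions. Actb, beta-actin, fell from 13500 and 12700 CPM to 10200 and 9590, with 14100 in the control above all 4 (log2 fold change -0.41 ± 0.07, adjusted p = 0.000242). Pfn1, which delivers actin monomers to growing filaments, fell from 455 and 419 CPM to 314 and 317 (log2 fold change -0.47 ± 0.08, adjusted p = 0.00014). Tmsb4x, which sequesters actin monomers, rose from 1190 and 1230 CPM to 1560 and 1770, with 1450 in the control between the sides (log2 fold change 0.46 ± 0.08, adjusted p = 0.000112). The alpha-tubulin gene Tuba1b rose from 450 and 459 CPM to 623 and 693 (log2 fold change 0.53 ± 0.08), and the beta-tubulin gene Tubb5 fell from 1830 and 1770 to 1420 and 1370 (log2 fold change -0.36 ± 0.07). All 5 kept their calls with each library left out. They belong to families with near-identical copies, so the values of single genes are less certain.

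Called genes differed in base composition, which the sides did not use. The last 300 bases of the transcript, the part that 3′-end sequencing reads, had a median GC content of 40% in coding genes called higher, 44.8% in those called lower and 42% in all coding genes tested. Among the 888 genes with at most 30% GC there, 4.62% were called higher and 1.8% lower. Among the 650 genes above 55% the shares were 0.769% and 4.46%, and the median log2 fold change was -0.08 against 0.01. Short transcripts were called higher more often, with 7.59% of 514 genes of up to 1000 bases against 3.45% of 1390 genes above 6000. The counts changed little when these trends were removed. With a GC offset, 424 genes were called higher and 346 lower, 658 of them shared with the main calls, and with a length offset 385 and 325.

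**Figure D5:**
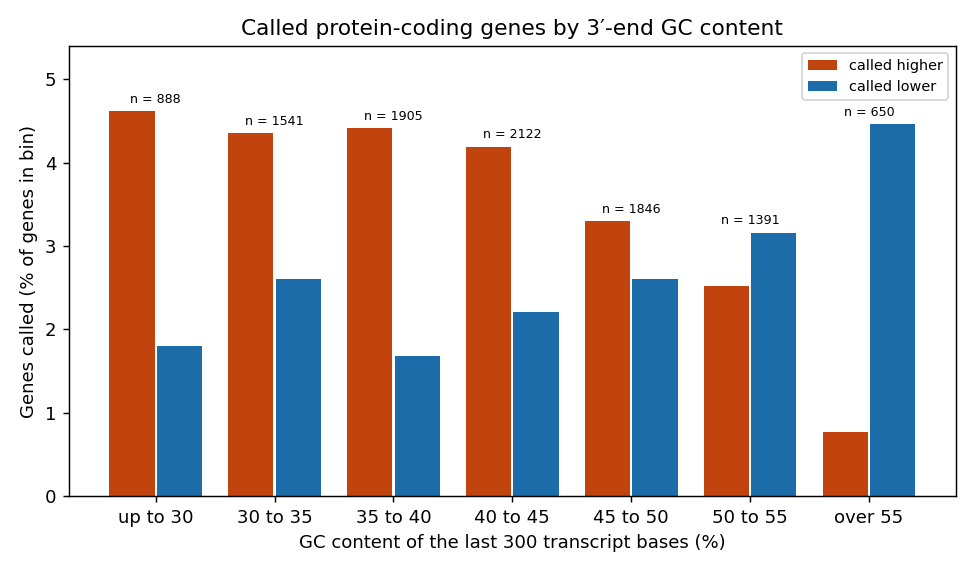
Percentage of protein-coding genes called higher (red) and lower (blue) in bins of GC content of the last 300 transcript bases, with the number of genes in each bin. The share called higher is 4.62% in the first bin and 0.769% in the last, and the share called lower 1.8% and 4.46%.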

How the data were processed

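Each of the 5 libraries had 1 deposited file of raw counts per gene symbol, 40879 symbols, whole numbers that sum to the library's depth. STAR and edgeR, without versions, and build GRCm39 come from the submitters' processing notes. Neither the counter, nor its annotation, nor its use of strand is recorded in these sources, so genes that overlap or lie antisense to each other cannot be told apart with certainty. Per the labels' protocols, libraries were QuantSeq 3′ mRNA-seq, single-end reads of 75 bp. Intervals and limits from counts cover counting error only, since reads carried no molecular identifiers.

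From the deposited counts, CPM were scaled by TMM factors over all 5 libraries (0.991 to 1.01). The 4 UPM libraries were fitted with side as the only term in edgeR 4.0.16 under R 4.3.3, with limma 3.58.1 and, for an alternative, DESeq2 1.42.0. After filterByExpr 11662 genes remained, and the quasi-likelihood p was adjusted by Benjamini-Hochberg, with calls made under 0.05. The fit had 2 residual and 37.3 prior degrees of freedom and a common dispersion of 0.00534, so p-values rest mostly on spread shared across genes. An exact permutation test of 2 against 2 cannot go below p = 0.333. SE is the log2 fold change over the square root of F. Tested on simulated data of this comparison (11473 genes), the fit recovered 72% of 100 genes changed 1.5-fold and 98% of 100 changed 2-fold, with 8 of 178 calls false. The simulated libraries of a side had the same expected level, and each gene had the spread typical of its abundance. The real libraries of a side differ in dose, so these rates need not hold for the real data.

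Gene types came from RefSeq by symbol (37566) or synonym (113). The promoter sequences are RefSeq's, in GRCm38.p6, and GC content and length came from GENCODE M21 transcripts. The members and the 34 lists were chosen with earlier results of these data known. Named were the 12 called coding genes of widest gap in each direction (mean CPM of at least 10), up to 3 called members of each list in each direction by p, in lists with none the 1 or 2 of highest CPM, and the detected trazodone targets. Symbols that are only identifiers were left out. Some genes within this rule are not reported here. Alternatives were other scalings, tests and filters, dose as a number, the control as a group of its own, and each UPM library left out in turn, when the lone library of a side is assumed to vary like the other side. GC and length offsets were added after seeing the data.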

Additional observations from a re-analysis of the deposited data

How the results depend on the processing

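No paired analysis was possible because each group has 1 library and the labels give no replicate numbers. The counts of 408 higher and 314 lower stayed within 1.5 times under the other scalings, limma-voom, a minimum of 10 CPM, the control as a group of its own, dose as a number, coding genes alone, and the GC and length offsets. DESeq2's Wald test gave 234 and 177, and testing all 18965 genes with a count 167 and 108. Leaving out 1 library gave 66 to 555 higher and 36 to 452 lower. The lowest came without TZ 5. Of the 122 named called genes, 28 kept their call in all alternatives that gave a value. Scaling by total counts turned the split to 64% higher against 56.5%. The non-overlap counts of 2144 and 2041 became 210 and 105 with a gap of 1.25-fold and 28 and 2 with 1.5-fold, by construction fewer. Some uncalled genes changed sign when a library was left out, with log2 fold changes from -0.167 to 0.018 for Cyp51 and -0.099 to 0.026 for Ski (positive without UPM alone), -0.111 to 0.017 for H2-D1 and -0.094 to 0.001 for Hmgcs1 (positive without TZ 2.5), and -0.041 to 0.429 for Htr2b and -0.186 to 0.345 for Hrh1 (negative without TZ 5). The cause of the other shifts was not tested. At this depth a gene near 1 CPM rests on few counts, as in Rnf25, whose fold of 6.12 was the largest among called coding genes.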

Other observations

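Outside the protein-coding genes the calls leaned downward for small structured RNAs. Of 72 small nucleolar RNAs tested 21 were lower (29.2%) and 1 was higher, and of 34 transfer RNA genes 6 were lower (17.6%) and 0 higher. Over all genes tested 2.69% were lower and 3.5% higher. Snord13, which guides acetylation of ribosomal RNA, was at 308 CPM with UPM alone, 251 at TZ 1.25, 153 at TZ 2.5 and 114 at TZ 5, with 221 in the control between the sides (log2 fold change -1.07 ± 0.10, adjusted p = 7.89e-09). Snord89 was at 342 and 324 CPM against 192 and 118, with 266 in the control (log2 fold change -1.10 ± 0.11, adjusted p = 2.78e-08). Both fell in each step of dose and stayed past the threshold with each library left out. These RNAs lack poly(A) tails, so what an oligo-dT library counts of them need not follow their level in the cell.

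Of 743 long noncoding RNAs tested 14 were higher (1.88%) and 8 lower (1.08%). The 3 described here were chosen after their values were seen. Malat1, which stays in the nucleus, was at 5420 and 6400 CPM against 8800 and 9950, with 5640 in the control (log2 fold change 0.67 ± 0.08, adjusted p = 3.15e-07). Neat1, the scaffold of paraspeckles, was at 177 and 176 CPM against 260 and 264, with 214 in the control between the sides (log2 fold change 0.57 ± 0.08, adjusted p = 1.59e-05). Gas5, a host of small nucleolar RNAs, was at 37.5 and 36.9 CPM against 52.3 and 67.3, with 40.7 in the control (log2 fold change 0.68 ± 0.13, adjusted p = 0.000624, and 0.213 without TZ 5). Gm26917, for which no gene type was matched, was at 41100 and 41400 CPM against 31400 and 29800, with 37700 in the control (log2 fold change -0.43 ± 0.07, adjusted p = 7.62e-05). Of 9 mitochondrially encoded genes tested 3 were higher (33.3%: ND4, CYTB and ND1) and 2 were lower (22.2%: mt-Rnr1 and mt-Rnr2, the ribosomal RNAs). The 4 not called were COX1, ND6, ND2 and ND5, with log2 fold changes of -0.19, -0.26, -0.15 and -0.01. COX2, COX3, ATP6, ATP8, ND3 and ND4L were not among the genes tested. ND4 of complex I was at 7320 and 7620 CPM against 11100 and 13600, with 7140 in the control (log2 fold change 0.73 ± 0.08, adjusted p = 6.08e-08).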
